A study of Homo sapiens with 16 samples.

Results

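The genes described here were 49 genes of DNA replication and of the passage from G1 into S phase, chosen by name and by role and taken as the mean of all array spots annotated with their symbol. All 49 had a value on every array, from 100 spots, among the 17329 genes that could be measured in this way. They comprised the helicase genes MCM2 to MCM7, origin licensing factors, CDC45 and the GINS subunits, the sliding clamp and its loader, replicative polymerases and primase, factors of flap processing and of single-stranded DNA, enzymes of nucleotide supply, the E cyclins with CDC25A, chromatin factors that act with the clamp, and checkpoint factors of S phase.

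In each cell cycle, origin recognition proteins with CDC6 and CDT1 load the MCM2 to MCM7 helicase on DNA in G1. Cyclin E with CDK2, whose inhibitory phosphates CDC25A removes, then helps to turn the loaded helicase with CDC45 and GINS into a working replication fork. Many of these genes are transcribed in late G1 by E2F factors, so that their mRNA is commonly read as a sign of entry into S phase. In a growing culture of leukaemia or lymphoma cells that has not been synchronised, a share of the cells is in S phase at any time.

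RNA came from U937, a human histiocytic lymphoma line, and 1 line was studied. Cells in exponential growth were exposed to 20 nM UNBS1450, a hemi-synthetic cardenolide that inhibits the sodium pump, and each array of 2 colours set treated cells against untreated control cells of the same time point. There were 16 arrays, 4 for each of 0, 3, 6 and 9 h, which the labels call biological replicates. The dye of treated RNA was Cy5 for the first pair of replicates, 1 and 2, and Cy3 for the other pair, 3 and 4. At 0 h the methods give no treatment, so that both channels held untreated cells, although the labels name the agent for 1 channel there too. Some label fields spell the line U397. The comparison asks whether the cardenolide changed mRNA levels before the cells began to die.

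Each value below is a log2 ratio of UNBS1450 over control on 1 array, or the mean of 4 arrays. A value of 0 means equal signal, and a call needed at least a 1.3-fold difference in either direction together with an adjusted p under 0.05 in limma, a linear model fitted to all genes and arrays together. Standard errors of the members in that fit ranged from 0.047 for RPA1 to 0.20 for ORC1. The ratios do not hold levels, so that neither the expression of a gene in U937 nor its identity as a monocytic line could be checked. As ratios, 8 monocyte markers had a median of −0.055 at 9 h, 7 T cell markers one of 0.025 and 5 B cell markers one of −0.067, and none of these 20 genes was called at 3, 6 or 9 h. As deposited, the ratios of arrays with opposite dyes correlated positively over spots within a time point, at 0.391 to 0.488 for the untreated 0 h arrays and at 0.119 to 0.327 at 9 h, which shows that the deposited ratios had not been turned and that dye left its own mark on them. The array of replicate 4 at 9 h had the widest spread of all 16, with an SD over all genes of 0.376 against 0.127 to 0.241 on the others.

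At 9 h the DNA replication genes lay on the higher side in treated cells. Of the 49 members, 40 had a mean above 0 and 9 had a mean below 0, and their median was 0.11, where the median of all genes was 0.0011 and 50.5% of all genes had a mean above 0. By the rule of fold and adjusted p, 2 members were called higher, HUS1 and RRM2, which is 4.08% of the members, where 0.531% of all genes were called at 9 h and 0.185% were called higher. None was called lower, beside 0.346% of all genes, and 47 were not called. At an unadjusted p under 0.05, 14 members were higher and 1 was lower, with 8.57% of all genes higher and 10.2% lower by that criterion. RNA was taken from whole cultures, so that more cells in S phase and more mRNA per cell cannot be told apart.

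The upward position at 9 h rested largely on 1 array. The median of the members was 0.041, −0.061, 0.11 and 0.43 on the arrays of replicates 1 to 4, and 26, 18, 34 and 42 of the 49 members read above 0 there. On the array of replicate 4, 34 members had the highest of their 4 values, beside 32.5% of all genes, and 7 had the lowest, beside 29.3%. Without that array the median fell to 0.024, 28 members had a mean above 0 with 47.7% of all genes, and no member was called, with 0.185% of all genes called. At an unadjusted p under 0.05, 4 members were then higher and 2 lower, with 5.41% and 7.03% of all genes. Once it is left out the dye orientations are no longer balanced. What made this array differ was not tested.

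**Figure D1:**
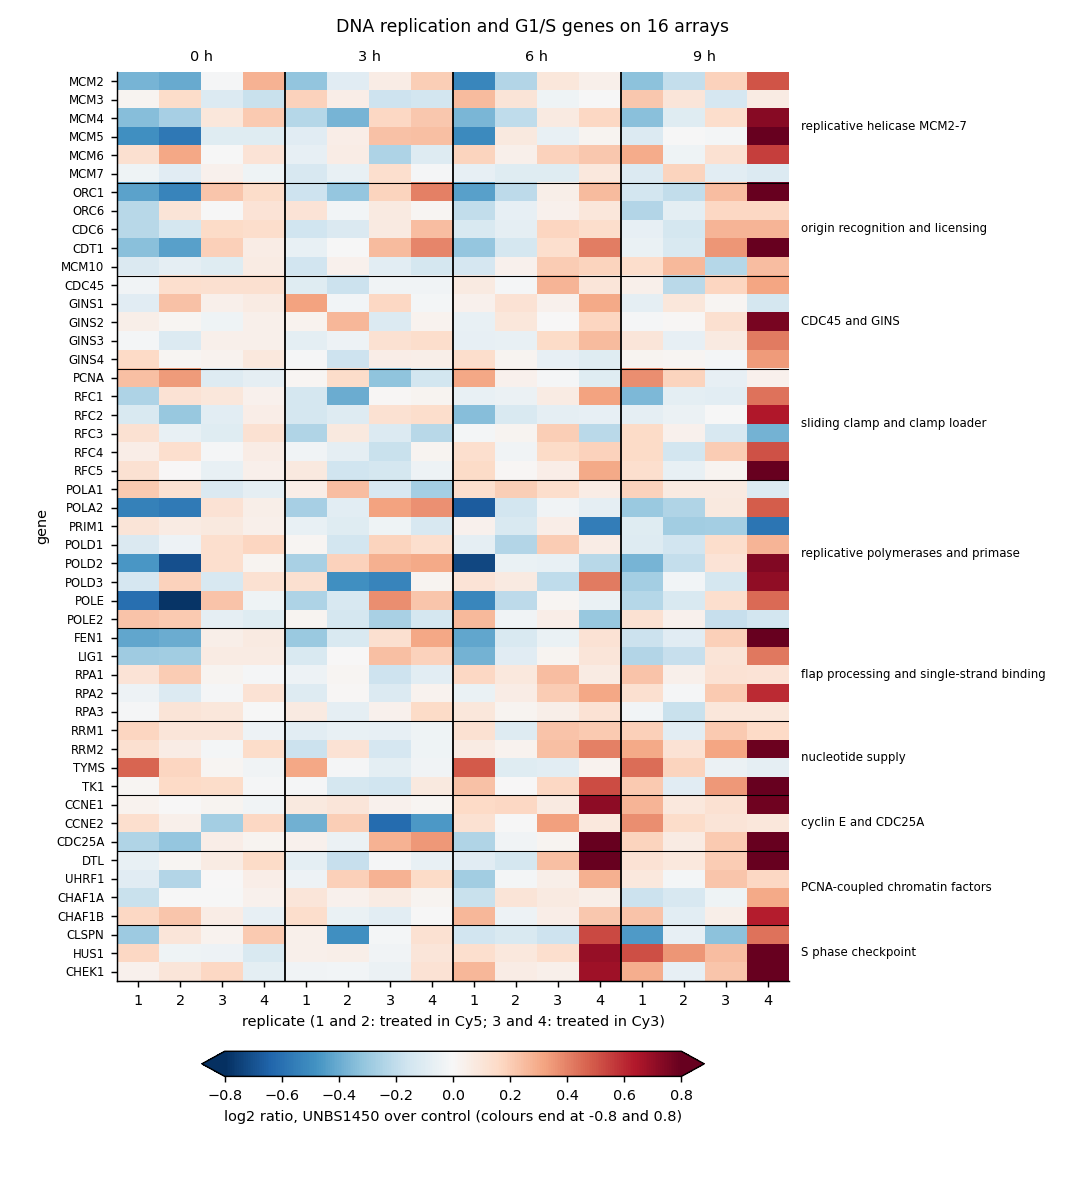
Log2 ratios of UNBS1450 over control for the 49 genes in rows, grouped by role, on the 16 arrays in columns, grouped by time. Red is higher and blue lower in treated cells, with colours ending at −0.8 and 0.8. The red column of replicate 4 at 9 h has a median of 0.43, and MCM2, ORC1, POLE and others read blue in replicates 1 and 2 already at 0 h, when no cells were treated.

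**Figure D2:**
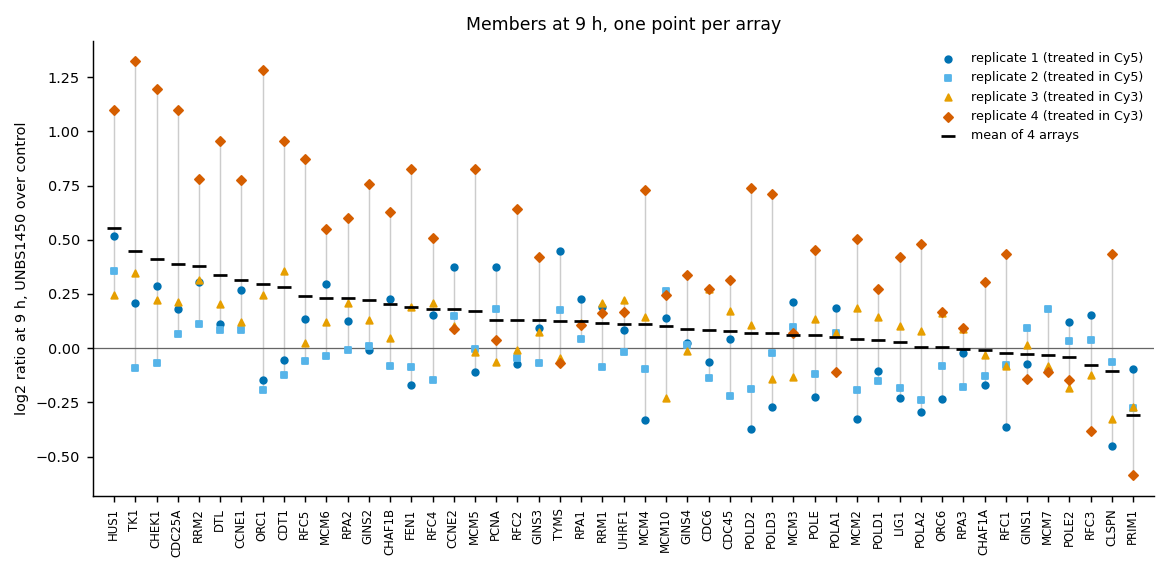
The 49 genes at 9 h, ordered by their mean, with the log2 ratio on each of the 4 arrays as a point and the mean as a bar. Diamonds, the array of replicate 4, lie at the top for 34 genes, and HUS1 has the highest and PRIM1 the lowest mean.

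HUS1, a subunit of the clamp of checkpoint proteins that is loaded at damaged or stalled forks, read 0.52, 0.35, 0.25 and 1.10 on the 9 h arrays of replicates 1 to 4. HUS1 had 1 spot, so that no second spot could be set beside it. All 4 arrays were above 0 and the array of replicate 4 was the highest. The mean was 0.55 ± 0.38 (SD, n = 4 arrays, standard error 0.11, adjusted p = 0.0394), a fold change of 1.47. At 0 h the gene read 0.16, −0.033, −0.038 and −0.12, at 3 h 0.038, 0.045, −0.028 and 0.097, and at 6 h 0.14, 0.086, 0.13 and 0.70. All 4 arrays at 9 h lay above the highest 0 h value, and at 6 h only that of replicate 4 did. The difference between 9 and 0 h was 0.56 (standard error 0.16, adjusted p = 0.454) and that between 9 and 3 h 0.52 (adjusted p = 0.314), so that neither passed. Without replicate 4 the 9 h mean was 0.37 (adjusted p = 0.0236), just under the fold threshold of 0.379 on the log2 scale. Leaving out replicate 1, 2 or 3 instead gave adjusted p of 0.2, 0.0667 and 0.139, and the call was lost in 7 of 15 alternatives.

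RRM2, the regulated small subunit of ribonucleotide reductase, which makes deoxyribonucleotides in S phase, read 0.30, 0.11, 0.32 and 0.78 at 9 h. All 4 arrays were above 0, with replicate 4 again the highest. The mean was 0.38 ± 0.28 (SD, n = 4 arrays, standard error 0.086, adjusted p = 0.0474), a fold change of 1.3 that lay on the threshold. At 0 h it read 0.13, 0.060, −0.015 and 0.14, at 3 h −0.17, 0.11, −0.13 and −0.037, and at 6 h 0.067, 0.027, 0.24 and 0.40. The 6 h arrays were all above 0 as well, with a mean of 0.18 (adjusted p = 0.558). The difference of 0.30 between 9 and 0 h did not pass (adjusted p = 0.508), nor did that of 0.44 between 9 and 3 h (adjusted p = 0.299). Without replicate 4 the mean was 0.24 (adjusted p = 0.155). The call was also lost without replicate 1, 2 or 3 (adjusted p = 0.206, 0.0555 and 0.166), with arrays scaled to one spread (mean 0.29, adjusted p = 0.0603) and with robust regression (mean 0.31, short of the fold), in all in 9 of 15 alternatives. RRM2 had 2 spots of one transcript accession, which read 0.10, −0.19, 0.31 and 0.60 on the first and 0.51, 0.41, 0.32 and 0.96 on the second, so that the 2 spots differed most on the arrays of replicates 1 and 2.

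TK1, the thymidine kinase of the salvage pathway, read 0.21, −0.093, 0.35 and 1.32 at 9 h. Replicate 2 lay below 0 and replicate 4 far above the rest. Its mean of 0.45 ± 0.61 (SD, n = 4 arrays) passed the fold but not the test (adjusted p = 0.122), and without replicate 4 it was 0.15. The catalytic subunit RRM1 of ribonucleotide reductase read 0.19, −0.086, 0.21 and 0.16, with a mean of 0.12 (adjusted p = 0.289), and replicate 4 did not stand out. TYMS, which makes thymidylate, read 0.45, 0.18, −0.047 and −0.070 at 9 h and 0.46, 0.17, 0.015 and −0.026 at 0 h. Its values at 9 h were thus close to those of untreated cells, higher where treated RNA carried Cy5. Of the 4 genes of nucleotide supply all had a mean above 0 at 6 h and at 9 h, but so had all 4 in untreated cells at 0 h, and 1 of 4 at 3 h. Their median was 0.079 at 0 h and 0.25 at 9 h, and 1, RRM2, was called at 9 h.

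**Figure D3:**
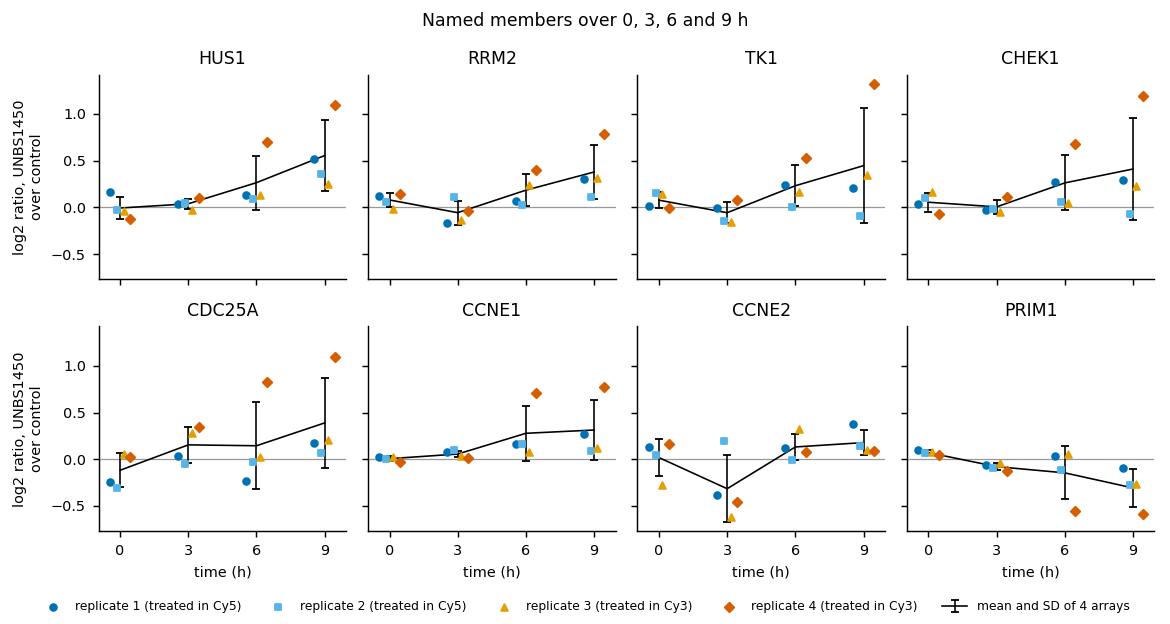
Log2 ratios of UNBS1450 over control at 0, 3, 6 and 9 h for 8 genes, with a point for each array and the mean with its SD (n = 4 arrays) as a line. At 6 and 9 h the diamond of replicate 4 lies far above the other points for HUS1, TK1, CHEK1, CDC25A and CCNE1 and below them for PRIM1, while CCNE2 is lowest at 3 h.

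Among the checkpoint factors, CHEK1, the effector kinase that ATR activates at stalled forks, read 0.29, −0.068, 0.22 and 1.20 at 9 h and 0.27, 0.059, 0.042 and 0.68 at 6 h. The 9 h mean was 0.41 ± 0.55 (SD, n = 4 arrays, adjusted p = 0.136), or 0.15 without replicate 4. CLSPN, the adaptor through which ATR reaches CHEK1, read −0.45, −0.065, −0.33 and 0.43, with a mean of −0.10 (adjusted p = 0.766). Its first 3 arrays were below 0 and averaged −0.28 without replicate 4 (adjusted p = 0.297). Of the 3 checkpoint genes 1, HUS1, was called at 9 h and 1, CLSPN, had a mean below 0, and the differences between them were not tested. Their partners, which were named outside the rule for named genes and after values were known, included RAD9A of the same clamp as HUS1 with a mean of 0.15 (adjusted p = 0.418), RAD17 of its loader with −0.23 (adjusted p = 0.374), ATR with −0.13 (adjusted p = 0.310) and its partner ATRIP with −0.24 (adjusted p = 0.192). None of these was called.

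The E cyclins and CDC25A read above 0 on all 4 arrays of 9 h, and none was called. CCNE1, cyclin E1, read 0.27, 0.084, 0.12 and 0.78 at 9 h and 0.16, 0.17, 0.073 and 0.71 at 6 h. All 8 values were above 0, and the means of 0.31 at 9 h (adjusted p = 0.109) and 0.28 at 6 h (adjusted p = 0.499) did not pass. Its 0 h values ranged from −0.027 to 0.026 and were the narrowest of this group. CDC25A, the phosphatase that activates CDK2, read 0.18, 0.066, 0.21 and 1.10 at 9 h, with a mean of 0.39 ± 0.48 (SD, n = 4 arrays, adjusted p = 0.208), or 0.15 without replicate 4. At 6 h its array of replicate 4 read 0.82 and the others −0.24, −0.028 and 0.021. At 3 h CDC25A had, with UHRF1, the highest mean of the members, 0.15, from 0.036, −0.049, 0.28 and 0.35.

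CCNE2, cyclin E2, had the lowest mean of all members at 3 h. It read −0.38, 0.20, −0.62 and −0.46 there, below 0 on 3 arrays and above 0 on that of replicate 2, with a mean of −0.32 ± 0.36 (SD, n = 4 arrays, adjusted p = 1.0). At 0 h it read 0.14, 0.043, −0.27 and 0.17, at 6 h 0.12, −0.0046, 0.33 and 0.082, and at 9 h 0.37, 0.15, 0.10 and 0.090. The 3 low arrays of 3 h lay below every value of the other time points. With robust regression, which gives a deviating array less weight, CCNE2 was called lower at 3 h at −0.42 (adjusted p = 0.00638), and so were its differences between 3 h and each of 0, 6 and 9 h. That setting called 0.0115% of all genes at 3 h and 0.104%, 0.202% and 0.762% for these differences. At 3 h CCNE2 was not called in the other 14 of 15 alternatives, with adjusted p up to 1.0.

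PRIM1, the catalytic subunit of primase, which makes the RNA primers of replication, was the member with the lowest mean at 9 h. It read −0.096, −0.28, −0.27 and −0.58, below 0 on all 4 arrays, with a mean of −0.31 ± 0.20 (SD, n = 4 arrays, standard error 0.083). Its adjusted p of 0.0729 missed the threshold, and its fold of 0.808 lay short of 1.3-fold down. At 0 h all 4 arrays were above 0, between 0.041 and 0.10. At 3 h all 4 were below 0, between −0.13 and −0.036, and at 6 h they read 0.037, −0.12, 0.053 and −0.55. The difference between 9 and 0 h was −0.38 (adjusted p = 0.477). PRIM2, the other primase subunit and no member, read 0.22, 0.042, 0.15 and 0.26 at 9 h, above 0 on all 4 arrays (mean 0.17, adjusted p = 0.068), and was named after its values were seen. In untreated cells at 0 h PRIM2 was above 0 on all 4 arrays too, between 0.053 and 0.13 (mean 0.083).

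Of the 6 helicase genes 5 had a mean above 0 at 9 h, or 2 without replicate 4, and 1 had one in untreated cells at 0 h. None was called. MCM2 read −0.33, −0.19, 0.18 and 0.50 at 9 h, below 0 where treated RNA carried Cy5 and above 0 where it carried Cy3 (mean 0.042, adjusted p = 0.919). It had the same order at 0 h, with −0.37, −0.40, −0.0092 and 0.28. MCM4 read −0.33, −0.098, 0.14 and 0.73 at 9 h (mean 0.11, adjusted p = 0.761) and was also lower in the Cy5 orientation at all 4 time points. MCM5 read −0.11, −0.0053, −0.016 and 0.83 at 9 h, so that its mean of 0.17 (adjusted p = 0.541) came from replicate 4 alone.

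MCM6 was the helicase gene with the highest mean at 9 h. It read 0.30, −0.036, 0.12 and 0.55 there, a mean of 0.23 (standard error 0.076, adjusted p = 0.111), and 0.18, 0.043, 0.19 and 0.21 at 6 h, above 0 on all 4 arrays. Its 0 h values of 0.13, 0.31, −0.0023 and 0.11 overlapped with both. MCM3 read 0.21, 0.096, −0.13 and 0.068 (mean 0.061, adjusted p = 0.719), and MCM7 −0.11, 0.18, −0.084 and −0.11 (mean −0.030, adjusted p = 0.839). In MCM7 replicate 4 did not lie above the rest.

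Among the origin licensing factors ORC1, CDT1 and CDC6 differed by dye orientation, CDC6 with a dye coefficient of −0.16 (adjusted p = 5.54e-05). ORC6, with a dye coefficient of −0.079 (adjusted p = 0.0543), and MCM10, with −0.0093 (adjusted p = 0.877), did not pass. ORC1, the largest origin recognition subunit, read −0.15, −0.19, 0.25 and 1.28 at 9 h (mean 0.30, adjusted p = 0.472) and −0.43, −0.53, 0.22 and 0.15 at 0 h. CDT1, which loads the helicase with CDC6, read −0.055, −0.12, 0.36 and 0.95 at 9 h (mean 0.28, adjusted p = 0.357). In ORC1 and CDT1 treated and untreated time points were lower in Cy5 than in Cy3. CDC6 had a mean of 0.086, ORC6 of 0.0038 and MCM10, a factor that joins the activated helicase, of 0.10 at 9 h, so that all 5 licensing genes had a mean above 0 and none was called. Without replicate 4 these were 3 of 5, and in untreated cells at 0 h 0 of 5.

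CDC45, which completes the active helicase, had a mean of 0.078 at 9 h (adjusted p = 0.599), or −0.0017 without replicate 4. Of its GINS partners, GINS2 read −0.0075, 0.0089, 0.13 and 0.76 (mean 0.22, adjusted p = 0.223) and GINS4 0.025, 0.013, −0.014 and 0.34 (mean 0.090, adjusted p = 0.454). GINS3 had a mean of 0.13, or 0.033 without replicate 4, and GINS1 read −0.072, 0.093, 0.013 and −0.14 (mean −0.027, adjusted p = 0.886). At 9 h, 4 of the 5 genes of this group had a mean above 0, the same count as in untreated cells at 0 h, and at 6 h all 5. Over all genes 46.5%, 47.4% and 50.5% of means were above 0 at 0, 6 and 9 h.

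PCNA, the sliding clamp, read 0.37, 0.18, −0.065 and 0.037 at 9 h and 0.24, 0.34, −0.10 and −0.073 at 0 h, higher in the Cy5 orientation at both times (9 h mean 0.13, adjusted p = 0.490). The loader subunits RFC4 and RFC5 had means of 0.18 and 0.24 (adjusted p = 0.196 and 0.237), with 0.51 and 0.87 on the array of replicate 4. RFC3 read 0.15, 0.037, −0.13 and −0.38 (mean −0.079, adjusted p = 0.674), 1 of 7 members with their lowest value on that array. RFC1 read −0.36, −0.079, −0.084 and 0.43 (mean −0.023, adjusted p = 0.944). RFC2 had a mean of 0.13, or −0.041 without replicate 4.

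Of the polymerase genes, POLD2 and POLA2, accessory subunits of polymerases delta and alpha, had the lowest means of all members at 6 h. POLD2 read −0.73, −0.051, −0.060 and −0.22 there (mean −0.27, adjusted p = 0.661) and POLA2 −0.67, −0.15, −0.030 and −0.071 (mean −0.23, adjusted p = 0.671). Both were below 0 on all 4 arrays and lowest in replicate 1. At 9 h POLD2 read −0.37, −0.19, 0.11 and 0.74, and at 0 h −0.47, −0.71, 0.13 and 0.019. POLE2, of polymerase epsilon, had a mean of −0.043 at 9 h, from 0.12, 0.033, −0.18 and −0.15 (adjusted p = 0.849). POLA1, POLD1, POLD3 and POLE had 9 h means between 0.040 and 0.069. In this group of 8, 6 genes had a mean above 0 at 9 h, or 1 without replicate 4, beside 2 at 6 h and 5 in untreated cells at 0 h, and none was called.

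RPA1, the large subunit of the protein that coats single-stranded DNA, had narrow replicates. It read 0.23, 0.044, 0.12 and 0.11 at 9 h and 0.17, 0.086, 0.25 and 0.063 at 6 h, above 0 on all 8 arrays, with means of 0.12 ± 0.076 (SD, n = 4 arrays, adjusted p = 0.166) and 0.14 ± 0.084 (adjusted p = 0.493). At 0 h it averaged 0.082, and the difference was not called. RPA2 had a mean of 0.23 at 9 h (adjusted p = 0.124), or 0.11 without replicate 4, and RPA3 one of −0.0038. The flap nuclease gene FEN1 read −0.17, −0.088, 0.19 and 0.83 and the ligase gene LIG1 −0.23, −0.18, 0.10 and 0.42, both lower in the Cy5 orientation.

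The chromatin factors around the clamp were led by DTL, the substrate receptor of a ubiquitin ligase that degrades CDT1 at the clamp. DTL read 0.11, 0.083, 0.20 and 0.96 at 9 h (mean 0.34, adjusted p = 0.214) and −0.092, −0.14, 0.24 and 0.86 at 6 h. CHAF1B, of the histone chaperone CAF-1, had a 9 h mean of 0.21 (adjusted p = 0.226), or 0.064 without replicate 4. CHAF1A read −0.17, −0.13, −0.033 and 0.31 (mean −0.0062, adjusted p = 0.979). UHRF1, which guides maintenance of DNA methylation, read −0.039, 0.19, 0.28 and 0.15 at 3 h and 0.082, −0.017, 0.22 and 0.17 at 9 h, above 0 on 3 of 4 arrays at each. Its means were 0.15 (adjusted p = 1.0) and 0.11 (adjusted p = 0.463). None of the 4 was called.

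The course over time was seen from the whole group. The median of the members moved from 0.011 in untreated cells at 0 h to −0.015, 0.069 and 0.11 after 3, 6 and 9 h, with 26, 23, 33 and 40 of 49 means above 0. No member was called at 0, 3 or 6 h, where 0% of all genes were called, and none in any of the 6 differences between time points, where again 0% were called. At an unadjusted p under 0.05, 9 members were higher and 0 lower at 9 h than at 3 h, with 6.57% and 5.53% of all genes, and 6 were higher and 1 lower at 9 h than at 0 h, with 4.51% and 5.09%. For 6 against 3 h these were 4 higher and 0 lower, with 4.11% and 4.68%, and for 3 against 0 h 1 higher and 2 lower, with 6.22% and 2.21%. For 6 against 0 h and 9 against 6 h no member passed in either direction, with 0.739% and 0.571% of all genes in the former and 1.2% and 1.36% in the latter. By the same criterion 0 members were higher and 1 lower at 0 h, with 0.675% and 5.49% of all genes, 0 were higher and 1 lower at 3 h, with 1.28% and 2.87%, and at 6 h 4 were higher and 0 lower, with 3.73% and 5.15% of all genes. The members that read above 0 on all 4 arrays were 2 of 49 in untreated cells, 2 after 3 h, 11 after 6 h and 7 after 9 h. These are 4.08% of members at 0 h and at 3 h, beside 5.49% and 5.6% of all genes. At 6 h they are 22.4% of members and at 9 h 14.3%, beside 9.31% and 9.63% of all genes. At 9 h the 7 were RPA1, RRM2, CCNE1, CCNE2, CDC25A, DTL and HUS1. Below 0 on all 4 arrays were 1 member in untreated cells, 4 after 3 h (CDC45, PRIM1, RRM1 and DTL) and 3 after 6 h. The shares of all genes were 7.13%, 8.07% and 9.61%. At 9 h only PRIM1 was below 0 on all 4 arrays, beside 11.1% of all genes.

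At 6 h the array of replicate 4 also stood highest, with a median over members of 0.14 against −0.054, −0.028 and 0.053, and 27 members had their highest value there. Without replicate 4 the 6 h median was 0.011 and that of 3 h −0.041. The time points share no samples, but replicate numbers recur in them.

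Dye orientation left a mark on many members. In a fit with a dye coefficient for each gene, added where treated RNA carried Cy5 and subtracted where it carried Cy3, 37 of 49 coefficients were below 0 (75.5%, with 53.4% of all genes). With an adjusted p under 0.05, 20 members were below 0 (40.8%, beside 14.8% of all genes) and 5 above 0 (10.2%, beside 11.2% of all genes). The lowest were ORC1 at −0.32, CDT1 at −0.26, POLE at −0.26, POLA2 at −0.26 and MCM4 at −0.25, and the 5 above 0 were PCNA, TYMS, POLE2, MCM3 and POLA1. No member reached a dye coefficient of 1.3-fold, beside 0.358% of all genes. In the mean of 4 arrays a dye effect of this kind cancels, yet it adds to their spread. With the dye coefficient in the fit HUS1 and RRM2 were called at 9 h with adjusted p of 0.0191 and 0.0205. PRIM1, RPA2 and CDT1 had adjusted p of 0.0352, 0.0428 and 0.0491 with folds under 1.3. Calls rose over all genes too, as that fit called 325 of the 17329 genes at 9 h, beside 92 without a dye coefficient.

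**Figure D4:**
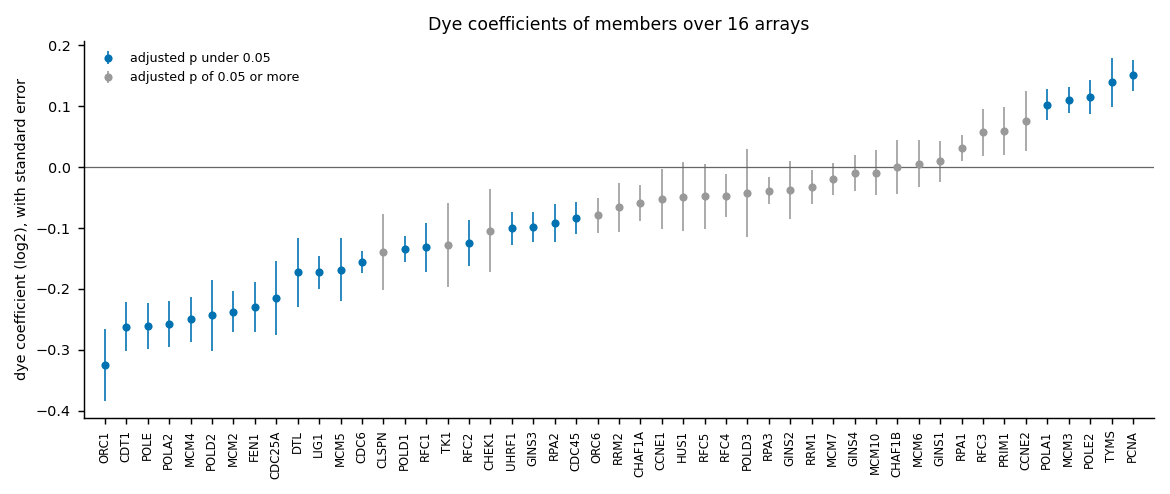
Dye coefficients of the 49 genes on the log2 scale with their standard errors, ordered by size, from a fit to 16 arrays. Coefficients below 0 mark genes that read lower where treated RNA carried Cy5. Of the 49, 20 are below 0 and 5 above 0 with an adjusted p under 0.05, drawn in blue.

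Spots of 1 gene were a second measure of error. PCNA, PRIM1, DTL and CHAF1B had 10 spots each, and within an array these 10 spots differed with an SD of 0.031 to 0.060, pooled over the arrays of a time point. Between arrays the same genes had an SD of 0.026 to 0.46. For PRIM1 at 9 h the SD was 0.051 between spots and 0.20 between arrays, and for DTL 0.050 and 0.41. At 6 and 9 h the 10 spots of each of these genes thus lay closer together on an array than its 4 arrays did, whereas for PRIM1 at 0 h the SD was 0.040 between spots and 0.026 between arrays.

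Some genes with fewer spots showed larger gaps, but not all, as the 2 spots of POLD1 had an SD of 0.020 at 3 h. Of 17 members with several spots, 6 had spot means of both signs at 9 h, ORC6, GINS4, RFC1, RFC3, POLD3 and UHRF1. The first RFC3 spot read 0.32, 0.20, 0.048 and 0.30, and the second, of another transcript accession, −0.017, −0.12, −0.30 and −1.06. UHRF1 had 3 spots with means of −0.0069, −0.0010 and 0.35. The spots of POLD3, a subunit of polymerase delta, had 9 h means of −0.16 and 0.30. At 3 h, where POLD3 had the lowest mean after CCNE2, it read 0.13, −0.49, −0.53 and 0.021 (mean −0.22, adjusted p = 1.0). The mean over spots gives no single answer for these 6 genes.

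**Figure D5:**
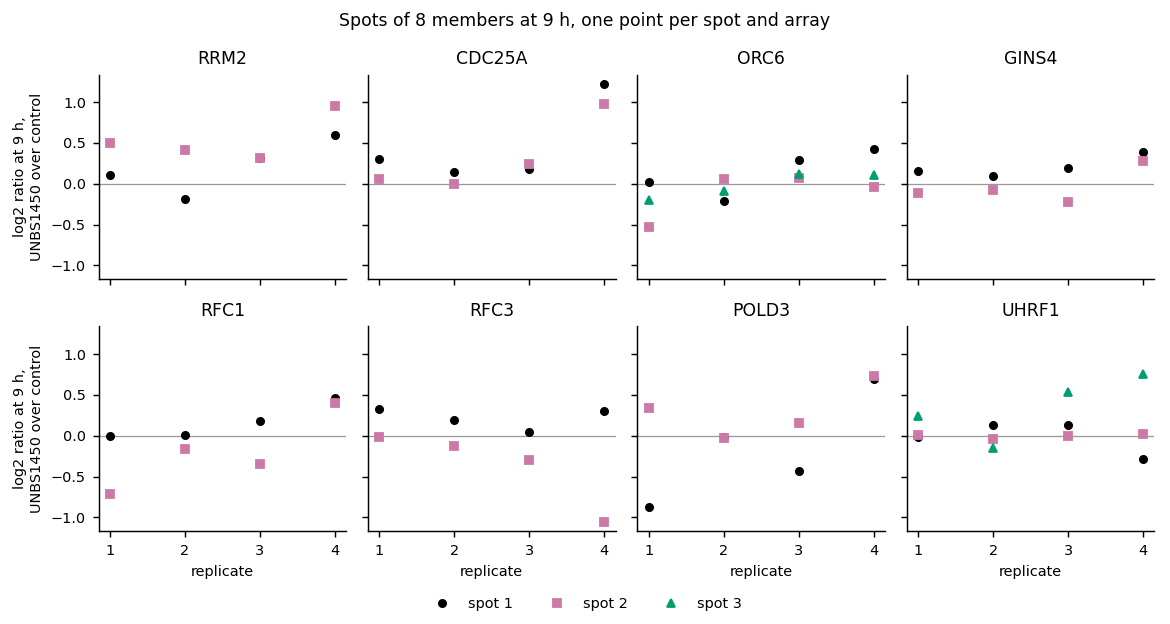
Log2 ratios at 9 h of the single spots of 8 genes on the 4 arrays, with 1 symbol for each spot. Both spots of CDC25A lie near 1 on the array of replicate 4, at 1.22 and 0.98, whereas the spots of RFC3 part there to 0.30 and −1.06.

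Promoters were read for 41 of the 49 genes from the RefSeq table of GRCh38.p14, as 250 bases before and 50 bases after the start of transcription. E2F factors bind GC-rich sites that open with a run of T, and the letters TTTCCCGC, TTTCGCGC, TTTGCCGC and TTTGGCGC were searched on both strands, as was the CCAAT box, CCAAT, bound by NF-Y. The E2F letters were in promoters of 21 of 41 members (51.2%) and of 3.99% of all 27305 genes with a promoter there. CCAAT was in those of 27 members (65.9%) and of 39.7% of all these genes. A gene counted where the promoter of any of its starts held the letters. Members with E2F letters had a median log2 ratio of 0.061 at 9 h (21 genes) and those without one of 0.13 (20 genes). A match is a string of letters and was not tested as a site. The 160 bases before the start for the called gene RRM2, for CDC25A and MCM6, the members of highest 9 h mean with E2F letters in the cyclin and the helicase groups, and for PRIM1, the lowest, are printed with CCAAT or its complement ATTGG and the E2F letters in capitals.
RRM2 (chr2:10122579-10122738, plus strand): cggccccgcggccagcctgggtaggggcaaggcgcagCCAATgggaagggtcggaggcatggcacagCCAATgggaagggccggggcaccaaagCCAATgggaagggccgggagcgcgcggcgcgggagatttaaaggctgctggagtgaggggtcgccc
CDC25A (chr3:48188418-48188577, minus strand): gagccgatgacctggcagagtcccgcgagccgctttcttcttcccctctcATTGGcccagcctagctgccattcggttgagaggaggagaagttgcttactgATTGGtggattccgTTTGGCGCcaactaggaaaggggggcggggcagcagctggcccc
MCM6 (chr2:135876444-135876603, minus strand): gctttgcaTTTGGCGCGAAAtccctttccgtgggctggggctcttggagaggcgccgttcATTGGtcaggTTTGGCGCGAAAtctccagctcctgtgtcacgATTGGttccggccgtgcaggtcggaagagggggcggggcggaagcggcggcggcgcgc
PRIM1 (chr12:56752324-56752483, minus strand): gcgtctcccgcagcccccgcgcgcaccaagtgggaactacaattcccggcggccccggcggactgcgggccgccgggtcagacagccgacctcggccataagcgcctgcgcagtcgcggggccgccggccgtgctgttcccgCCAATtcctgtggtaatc

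RRM2 held CCAAT 3 times, at −123, −93 and −66 from the start, each followed by the same letters, and no E2F letters in this window. RRM2 had 2 annotated starts, and these positions count from the start used here. Its printed window begins at 10122579, after the annotated gene start at 10122568. MCM6 held a run of E2F letters at 2 places, in which TTTGGCGC and the complement of TTTCGCGC overlap, and CDC25A held 1 at −44. PRIM1 held neither E2F letters nor more than 1 CCAAT, at −18. Nothing follows from these letters about the factors.

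The wider pathway was described from lists of genes outside the 49. Of 50 other replication factors limma called none at 9 h, and 9 were higher and 4 lower at an unadjusted p under 0.05, which 8.57% and 10.2% of all genes were. Their median was 0.056 with 29 means above 0, the same count as in untreated cells at 0 h, where the median was 0.014. DCK, a kinase of nucleoside salvage, read 0.47, 0.29, 0.25 and 0.63 (mean 0.41, adjusted p = 0.235), and SUPT16H, of the histone chaperone FACT, −0.57, 0.0057, −0.40 and −0.32 (mean −0.32, adjusted p = 0.0888). WEE1, which restrains CDK1, marked the other high end with 0.0018, 0.22, 0.041 and 1.12 (mean 0.34, adjusted p = 0.265). ORC3 marked the other low end with 0.012, 0.034, −0.38 and −0.87 (mean −0.30, adjusted p = 0.208). Without replicate 4 these means were 0.087 for WEE1 and −0.11 for ORC3.

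Among 18 G1 cyclins, CDKs and inhibitors the median at 9 h was 0.016 and none was called. At an unadjusted p under 0.05, 2 were higher and 2 lower, with 8.57% and 10.2% of all genes. CCND1, cyclin D1, was below 0 on all 4 arrays at 9 h, between −0.38 and −0.24 (mean −0.29, adjusted p = 0.0760), while CDKN2D, an inhibitor of CDK4 and CDK6, read 0.36, 0.12, 0.30 and 1.40 (mean 0.55, adjusted p = 0.0888). CKS1B had a mean of 0.27, or 0.12 without replicate 4, and CCNA1 one of −0.33 that came from −1.24 on the array of replicate 4.

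Of 16 E2F factors and pocket proteins the median at 9 h was 0.089 and none was called. At an unadjusted p under 0.05, 5 were higher and 0 lower, with 8.57% and 10.2% of all genes. E2F8, a repressive E2F, read 0.93, 0.61, 0.14 and 1.56 (mean 0.81, adjusted p = 0.067). E2F7, its relative, read 0.23, 0.33, 0.32 and 1.53 (mean 0.60, adjusted p = 0.0936), and both were above 0 on all 4 arrays. In untreated cells at 0 h E2F8 already read 0.39, 0.50, −0.22 and −0.36, higher in the Cy5 orientation. Without replicate 4 the 9 h means were 0.56 for E2F8 and 0.29 for E2F7. RBL2 and TFDP1 were the lowest, at −0.10 and −0.082. The 39 genes of mitosis had a median of −0.093 at 3 h, with 6 of 39 means above 0 beside 48.7% of all genes. By an unadjusted p under 0.05, 6 of them were lower at 3 h, beside 2.87% of all genes. At 0 h 27 means were above 0. At 9 h the median was 0.057 with 28 means above 0, and 8 were higher and 0 lower by that criterion, with 8.57% and 10.2% of all genes. No gene of mitosis was called at either time.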

How the data were processed

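The authors scanned 2-colour Agilent arrays, extracted spots with GenePix Pro, corrected background by normexp and normalised with limma, first by loess within each array and then by Aquantile. Deposited were log2 ratios of Cy5 over Cy3, not turned by dye, without intensities or weights. Of 45220 spots, 40563 had values, 11507 of these were not listed in the annotation used here, 86 carried several symbols, and 28970 gave 17329 genes.

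Direction rests on the labelled dyes and limma's convention of Cy5 over Cy3. The sign of replicates 3 and 4 was changed to give UNBS1450 over control, spots were averaged per gene, and 1 coefficient per time point was fitted to 16 arrays. The functions lmFit and eBayes were those of limma (version 3.58.1, R version 4.3.3), with 12 residual and 3.2 prior degrees of freedom. Adjusted p-values are limma's, by Benjamini-Hochberg over all genes, and calls needed at least 1.3-fold and an adjusted p under 0.05. The model was first run on simulated data with independent noise for each gene and array. These held no dye effect and no array of wider spread, so that the run says nothing about either. With 4 arrays per time point precision is limited, and no intensities show which spots were near background.

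Members and lists were chosen with earlier results of these data known. Described in full were MCM2 to MCM7, called members, the 4 highest and 8 lowest at 9 h, the 2 highest and 2 lowest at 3 and at 6 h, and members with spots of both signs. For the other lists these were the 2 highest and 2 lowest at 9 h. Alternatives concerned the spot taken, dye, block, weights, scaling, left-out replicates and thresholds. Figures used Python 3.11.15 and matplotlib 3.10.9.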

Additional observations from a re-analysis of the deposited data

Results flagged for a closer look

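Of 38 values on 4 arrays examined for an array far from the other 3, 6 had one. Chance gives about 1 in 20 for values not chosen by their size, but most of these were named for a high or low mean, in which the array of replicate 4 took part, and they share arrays, so that this rate does not apply to them. Over all genes 5.11%, 6.35% and 7.83% had such an array at 3, 6 and 9 h. On the array of replicate 4 at 9 h, MCM5 read 0.826 with the others between −0.11 and −0.00529, CDC25A read 1.1 with the others between 0.0661 and 0.212, and GINS4 read 0.338 with the others between −0.0144 and 0.0245. On the array of replicate 4 at 6 h, HUS1 read 0.699 with the others between 0.0864 and 0.137, and CCNE1 read 0.714 with the others between 0.073 and 0.166. MCM7 alone had its far value elsewhere, 0.179 on the array of replicate 2 at 9 h with the others between −0.108 and −0.0838.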

How the results depend on the processing

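The 2 calls at 9 h were held with the spot of highest F-statistic, a dye coefficient per gene, arrays centred on their median, any spot of a gene and no fold threshold. Several of these settings could hardly lose a call. Both spot settings took the spot with the strongest result, and HUS1 had 1 spot. Array medians were near 0 before centring, and leaving out the fold threshold only relaxed the rule. Both calls were lost with array weights (0 called), with each time point on its own arrays (0), without replicate 4 and with a dye coefficient (0), and without any single replicate (0 to 0). Arrays scaled to one spread left 1, HUS1. Robust regression called 1 member at 9 h, HUS1, 1 at 3 h, CCNE2 (−0.42), 1 each for 3 against 0 h and 6 against 3 h, CCNE2, 1 for 9 against 0 h, HUS1, and 2 for 9 against 3 h, CCNE2 and HUS1. Over all genes it called 1.04% at 9 h, 0.0115% at 3 h, 0.104% and 0.202% for 3 against 0 h and 6 against 3 h, and 0.635% and 0.762% for 9 against 0 h and 9 against 3 h. Past the fold with an unadjusted p under 0.05 were 5 members at 9 h (HUS1, RRM2, TK1, CHEK1 and CDC25A), 1 for 3 against 0 h (MCM5), 1 for 6 against 3 h (CCNE2), 3 for 9 against 0 h (MCM5, CDC25A and HUS1) and 4 for 9 against 3 h (RRM2, TK1, CCNE2 and HUS1), where 2.93%, 1.77%, 1.43%, 2.49% and 2.91% of all genes passed in that order. Adjusted p over these settings ranged from 0.000872 to 0.519 for HUS1 and from 0.0116 to 0.519 for RRM2.

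The 3 h median was −0.0593 with treated RNA in Cy5 and 0.034 with it in Cy3. With the spot of highest F-statistic 2 members were below 0 on all arrays at 0 h and 4 above 0 at 3 h. Left-out replicates gave 0 to 1 members with a dye effect past both thresholds, ORC1 being the 1. Over all genes 92 were called at 9 h, 299 with the spot of highest F-statistic, 325 with a dye coefficient, 181 with robust regression, 7 with array weights, 55 with scaled arrays and 0 to 32 without a replicate.

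Of 34 described values, 14 changed sign in some setting, none of them called. With array weights MCM2 read −0.134, MCM4 −0.0875, MCM7 0.00893, RFC3 0.025, POLE2 0.0212, GINS1 0.000309, POLD3 −0.0777, POLD2 −0.144, POLA2 −0.158 and ORC6 −0.0842. With scaled arrays MCM2 read −0.0191, POLD2 −0.00595, POLA2 −0.0489 and ORC6 −0.0215, and with robust regression POLD3 −0.00721 and POLD2 −0.0115. Without replicate 4 and with a dye coefficient MCM2 read −0.0471, MCM4 −0.0305, MCM5 −0.00697, MCM7 0.00398, RFC3 0.0145, GINS1 0.00898, POLD3 −0.177, POLD2 −0.0781, POLA2 −0.0732 and ORC6 −0.0272. With the spot of highest F-statistic RFC3 read 0.217, RFC1 0.161 and ORC6 −0.108, and with any spot of a gene RFC3 0.217 and RFC1 0.161. Leaving out 1 replicate moved MCM2 from −0.112 to 0.164, MCM4 from −0.0961 to 0.258, MCM5 from −0.0437 to 0.268, CLSPN from −0.282 to 0.0136, RFC3 from −0.156 to 0.0218, POLE2 from −0.0979 to 0.00348, GINS1 from −0.067 to 0.0114, RFC1 from −0.175 to 0.09, CHAF1A from −0.11 to 0.048, POLD3 from −0.144 to 0.182, POLD2 from −0.151 to 0.219, POLA2 from −0.152 to 0.107 and ORC6 from −0.0512 to 0.0838. The cause was not tested.

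Samples of one replicate number deviated together at r of 0.037 to 0.665 over 24 pairs, not above 0.1 in each. Pairs of other numbers ran from −0.095 to 0.666 with the same dye orientation and from −0.545 to −0.017 with the opposite one. The medians were 0.351 for pairs of one number and 0.23 for other numbers with the same dye orientation. With the dye coefficient removed, pairs of one number ran from −0.423 to 0.501, with a median of 0.022. Pairs of other numbers with the same orientation then had a median of −0.234. These correlations do not settle whether arrays of one number belong together. The main fit did not take the numbers as pairs. In a fit with a replicate block the consensus correlation was 0.247. A replicate block called 2 members at 9 h and 99 genes, and it changed no other call of members. Ratios without intensities do not show which values lie near background.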
